A study of Mus musculus with 6 samples.

Results

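The Hox genes are the homeobox genes of the HoxA, HoxB, HoxC and HoxD clusters, and the 39 rows of the expression table whose symbol is Hoxa, Hoxb, Hoxc or Hoxd followed by a number were taken as the members, out of 36915 rows in all. There were 11 HoxA, 10 HoxB, 9 HoxC and 9 HoxD genes, and none of the symbols was listed more than once. They were measured by RNA sequencing of total RNA from bone marrow mesenchymal stem cells (BMMSCs) of C57BL/6 mice, adherent cells grown out from the flushed marrow of femurs and tibias. The comparison was of 3 control libraries with 3 libraries from BMMSCs given siRNA against both Tet1 and Tet2 (siTet1/Tet2), so that it asked which genes differ in BMMSCs after joint knockdown of these enzymes. The labels name a non-targeting siRNA for the controls and passage 2 for all cells, whereas the methods name a vehicle for the controls of the sequencing and passage 1, and the age of the mice behind these cultures was not given in the sources used here. Nothing in the labels says whether the 3 libraries of a group came from separate mice or cultures, so p-values measure the spread between these libraries, which may be technical. Levels are in RPKM, read counts divided by transcript length and library size, so that genes of different length can be compared.

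Hox proteins are transcription factors that bind DNA through a homeodomain and give cells their position along the head-to-tail axis and along the limb. The genes stand in clusters in the order in which they act, with the low paralog groups at the 3′ end used towards the head and the high groups at the 5′ end used towards the tail and the limb tip, and genes of the same number in different clusters are paralogs with overlapping roles. Stromal cells of the adult skeleton keep a Hox pattern that reflects where in the body they lie, and Polycomb and Trithorax complexes hold this pattern. TET enzymes oxidise 5-methylcytosine, which in mammals lies mostly at CpG dinucleotides, and such CpG are dense at many Hox promoters.

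Tet2, one of the targeted genes, was listed at 2.573, 4.081 and 3.706 RPKM in the controls and at 0.358, 0.238 and 0.202 RPKM in the siTet1/Tet2 libraries. Tet1 was at 0.098 RPKM or less in every library, which left it untested. Tet3 was not called (log2 change 0.12, adjusted p = 0.508, limma). The labelled cell type was checked against marker genes. Of 30 stromal markers, Col1a1 averaged 488 RPKM, Pdgfra 9.92 RPKM and Cxcl12 38.9 RPKM in the controls, while Thy1 (0.001 to 0.146 RPKM over the 6 libraries) and Lepr (0.015 to 0.083 RPKM) were close to the lowest listed value of 0.001 RPKM. Macrophage markers were abundant in all libraries, with Lyz2 at a mean of 4439 RPKM and Csf1r at 499 RPKM in the controls, so both kinds of marker were present in these cultures. The step size of low values put the depth at about 32400000 to 38600000 reads per library, an estimate at which 56.0% to 59.1% of low values lay within 0.1 of a whole read, against 43.0% to 47.7% at the next best depth, so that the depth and the read numbers given below are rough.

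The clusters lie on chromosome 6 (HoxA, chr6:52155590-52260880, minus strand), chromosome 11 (HoxB, chr11:96194316-96368256, plus strand), chromosome 15 (HoxC, chr15:102921103-103036852, plus strand) and chromosome 2 (HoxD, chr2:74668310-74765142, plus strand) of GRCm38, positions from the GENCODE M21 annotation. They are compact, with lengths of 105.3, 173.9, 115.8 and 96.8 kb. The annotated spans of some members overlap: Hoxa3 runs across Hoxa4, Hoxa5 and Hoxa6, Hoxc5 runs across Hoxc6, Hoxc8, Hoxc9 and Hoxc10, and Hoxd3 runs across Hoxd4. How reads in a shared span were assigned is not given in the sources used here, so the values of these genes are less certain than those of Hoxa9, Hoxa10, Hoxa11 or Hoxb4.

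RefSeq promoter windows of GRCm38.p6 were matched for 22 of the 39 genes, in 24 windows since Hoxa10 and Hoxd11 have a pair each. In the 250 bases before the start, Hox windows held a median of 12.5 CpG dinucleotides (2 to 35), beside a median of 6 over all 32851 windows of the same length. The median was 15.5 in the 10 HoxA windows and 12.5 in the 10 HoxD windows, although HoxA held expressed genes and HoxD, as described below, hardly any. HoxB had 3 windows and HoxC only 1, that of Hoxc4, so these values say little on HoxC, and Hoxc10 had no window. The 5 windows printed here were chosen, among the genes that have a window, from those on which the results turn. Every CpG is in capitals and the strand of the gene is read 5′ to 3′. Hoxa10 (chr6:52234940-52235189, minus strand, the window of its pair with more CpG), Hoxa11 (chr6:52245811-52246060, minus strand) and Hoxa5 (chr6:52204588-52204837, minus strand) are expressed genes that were lower after knockdown. Hoxb4 (chr11:96318017-96318266, plus strand) is the expressed gene whose level differed least, and Hoxd10 (chr2:74691641-74691890, plus strand) is the nearly silent paralog of Hoxa10 and Hoxc10.
Hoxa10: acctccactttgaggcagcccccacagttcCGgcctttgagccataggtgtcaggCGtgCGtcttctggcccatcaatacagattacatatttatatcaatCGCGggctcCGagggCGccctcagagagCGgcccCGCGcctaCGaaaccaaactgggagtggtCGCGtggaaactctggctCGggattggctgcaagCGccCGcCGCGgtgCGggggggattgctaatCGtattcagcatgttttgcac
Hoxa11: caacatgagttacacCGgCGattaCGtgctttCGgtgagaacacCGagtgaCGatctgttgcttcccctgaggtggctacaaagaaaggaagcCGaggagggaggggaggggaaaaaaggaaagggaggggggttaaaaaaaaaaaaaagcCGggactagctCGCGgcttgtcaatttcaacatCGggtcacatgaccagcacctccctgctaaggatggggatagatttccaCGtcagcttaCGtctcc
Hoxa5: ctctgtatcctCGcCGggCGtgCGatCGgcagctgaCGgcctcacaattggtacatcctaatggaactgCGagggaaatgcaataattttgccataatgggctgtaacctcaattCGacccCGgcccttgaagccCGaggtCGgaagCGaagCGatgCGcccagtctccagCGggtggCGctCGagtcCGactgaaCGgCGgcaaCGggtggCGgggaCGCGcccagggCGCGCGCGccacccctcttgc
Hoxb4: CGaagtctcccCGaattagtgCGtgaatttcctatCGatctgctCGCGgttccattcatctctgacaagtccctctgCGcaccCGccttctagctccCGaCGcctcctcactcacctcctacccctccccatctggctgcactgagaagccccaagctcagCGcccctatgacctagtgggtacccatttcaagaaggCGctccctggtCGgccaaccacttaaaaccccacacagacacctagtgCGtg
Hoxd10: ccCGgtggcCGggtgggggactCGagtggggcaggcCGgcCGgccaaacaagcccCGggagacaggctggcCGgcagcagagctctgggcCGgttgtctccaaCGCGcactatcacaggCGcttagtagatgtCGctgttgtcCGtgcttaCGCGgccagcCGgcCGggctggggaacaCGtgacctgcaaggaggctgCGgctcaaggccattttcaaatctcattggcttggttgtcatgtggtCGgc
These windows hold 20 CpG in Hoxa10, 13 in Hoxa11, 28 in Hoxa5, 14 in Hoxb4 and 20 in Hoxd10. The other Hoxa10 window, at a start further out (chr6:52240855-52241104), holds 7. A search of both strands for short motifs found CCAAT in 14 of the 24 Hox windows (33.8% of all windows), TATAAA in 4 (12.4% of all) and TGATNNAT, a core of Pbx and Hox sites, in 4 (7.7% of all). A match is only a run of letters, and DNA methylation was not among the measurements analysed here.

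In control BMMSCs the Hox genes on were mostly HoxA and HoxC genes, and those with the highest levels were of paralog group 10. Hoxc10 was at 5.285, 4.613 and 6.689 RPKM and Hoxa10 at 4.194, 4.02 and 4.174 RPKM, so that both stood above every other Hox gene in each control library, and the ranges of these paralogs did not overlap. Next in mean RPKM came Hoxa11 (2.56 ± 0.454), Hoxb4 (2.02 ± 0.178), Hoxa5 (2.01 ± 0.179), Hoxa9 (1.90 ± 0.301), Hoxa7 (1.81 ± 0.301) and Hoxc9 (1.77 ± 0.115; each SD, n = 3). The steps between neighbours from Hoxb4 to Hoxc9 were smaller than their SDs, so their order is not resolved. Hoxc6 (1.20 ± 0.416) and Hoxc11 (1.16 ± 0.179) also averaged above 1 RPKM. In all, 11 Hox genes reached a mean of 1 RPKM in the controls, and after knockdown 1 did, Hoxb4.

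**Figure D1:**
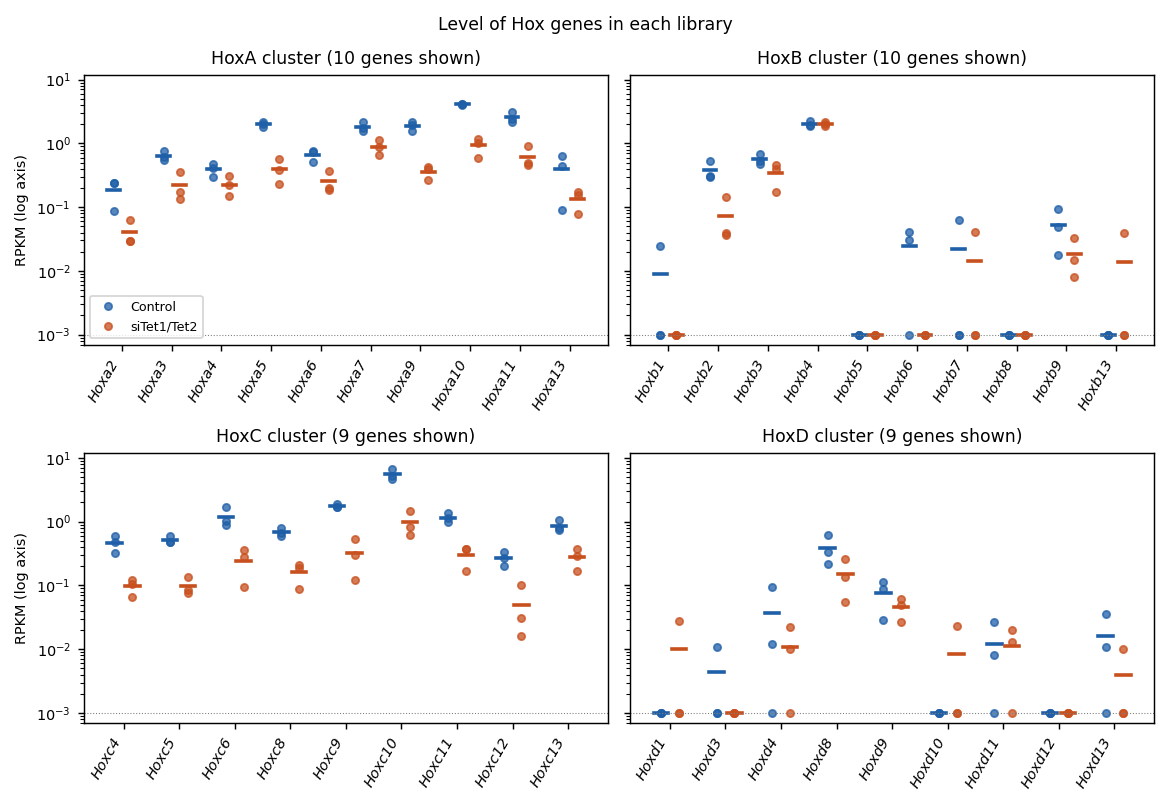
Level of 38 of the 39 Hox genes in RPKM on a log axis, 1 panel per cluster, with a point per library (3 Control, 3 siTet1/Tet2), a bar at the group mean and a dotted line at the lowest listed value of 0.001 RPKM. HoxA and HoxC points of the siTet1/Tet2 libraries lie under those of the controls for most genes, those of Hoxb4 lie side by side, and most HoxB and HoxD genes sit at or near the dotted line. Scaled to stromal markers, no Hox gene was called lower.

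Of the 39 genes, 24 averaged 0.1 RPKM or more across the 6 libraries and were tested: 11 HoxA, 3 HoxB, 9 HoxC and 1 HoxD gene. A gene can pass through its control level alone, so counts over these 24 describe the genes tested, not all Hox genes. Of the 24, 18 were lower in siTet1/Tet2 BMMSCs at an adjusted p under 0.05 and 0 were higher (limma on log2(RPKM + 1), Benjamini-Hochberg over 13266 genes), where 29.8% of all genes tested were called lower and 14.7% higher. These and all following directions are on the deposited scale. When libraries were instead scaled to their stromal markers (pseudocount of 1), which moved the median log2 change of all genes from -0.09 to 1.92, 6 Hox genes were higher and 0 lower, beside 91.3% and 0.927% of all genes. At an unadjusted p under 0.05, 22 of the 24 were lower and 0 higher, beside 34.6% and 17.7% of all genes. The study called genes altered at a p under 0.05 with a change of more than 2-fold, and this call, applied here to the unadjusted p and the log2(RPKM + 1) scale, held for 6 genes, Hoxa5, Hoxa9, Hoxa10, Hoxa11, Hoxc9 and Hoxc10, all lower (5.63% of all genes were lower and 0.95% higher by this call). This count rests on the pseudocount of 1, which shrinks the fold of genes near 1 RPKM: it was 16 with a pseudocount of 0.1 (10.8% of all genes) and 19 with the fold taken as the ratio of group means (11.8% of all genes), all lower. With no filter on low values, 19 of 36 Hox genes were lower at an adjusted p under 0.05 and 0 higher, beside 20.2% of all genes lower. Every siTet1/Tet2 library was under every control library for 20 of the 24 genes, which holds for 35.9% of all genes tested. The median ratio of group means over the 24 genes was -2.06 on the log2 scale, against -0.12 over all genes tested.

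**Figure D2:**
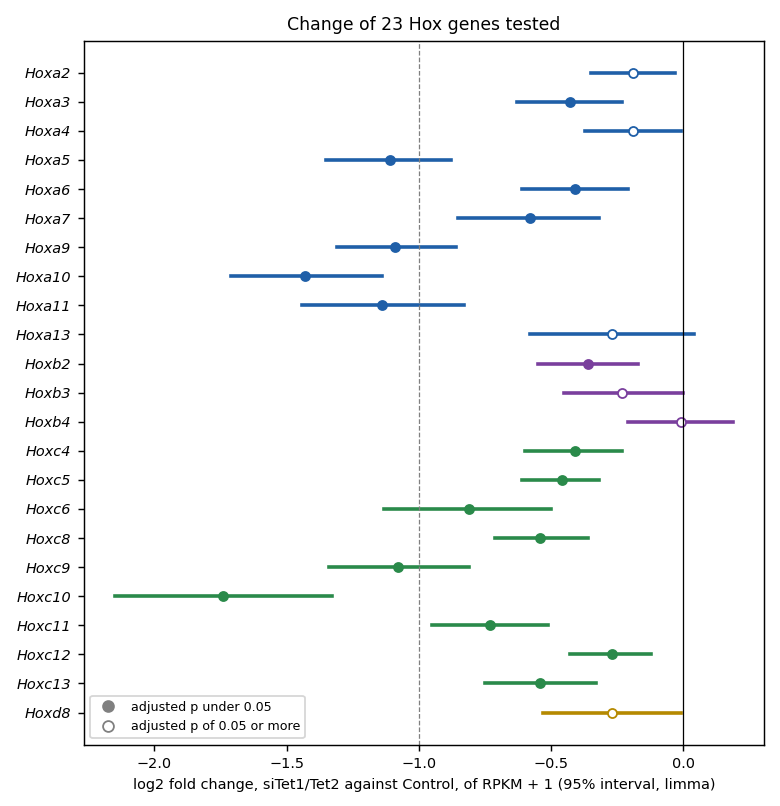
Log2 change of 23 of the 24 tested Hox genes, siTet1/Tet2 over Control, on the log2(RPKM + 1) scale with its 95% confidence interval from limma (filled, adjusted p under 0.05; open, not called; dashed line, a 2-fold decrease). Hoxc10 (-1.74) and Hoxa10 (-1.43) lie furthest to the left and Hoxb4 (-0.01) lies at 0 on this deposited scale. Scaled to stromal markers, Hoxb4 was at 1.56, where the median of all genes was 1.92.

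In the HoxA cluster, 8 of 11 genes were called lower, beside 29.8% of all genes tested. The genes of groups 5, 9, 10 and 11 had the largest decreases on the log2(RPKM + 1) scale. Hoxa10, which patterns the lumbar spine and the thigh segment of the limb, was at 0.581, 1.016 and 1.182 RPKM after knockdown, against control values above 4 RPKM. It was 4.46-fold lower by group means (log2 change -1.43 ± 0.12 SE, adjusted p = 5.76e-05), and the groups stood far apart. Hoxa11, which patterns the forearm and lower leg and marks skeletal stromal cells of those segments, was at 2.199, 2.402 and 3.067 RPKM in the controls and at 0.499, 0.451 and 0.911 RPKM after knockdown. Its group means differed 4.12-fold (log2 change -1.14 ± 0.13 SE, adjusted p = 0.000261, limma).

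Hoxa9, a regulator of posterior pattern and of blood progenitors, was at 1.562, 2.149 and 1.974 RPKM against 0.265, 0.392 and 0.419 RPKM, a 5.28-fold difference (log2 change -1.09 ± 0.10 SE, adjusted p = 6.8e-05). This was the largest fold of the cluster. Hoxa5, which acts in the neck and upper thorax and in the lung, was at 2.028, 1.824 and 2.181 RPKM against 0.387, 0.234 and 0.57 RPKM, 5.07-fold lower (log2 change -1.11 ± 0.10 SE, adjusted p = 7.89e-05). Estimated from the depth, the reads behind Hoxa10 were 342 to 403 per control library and 57 to 107 per siTet1/Tet2 library.

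Other HoxA genes were lower by less. Hoxa7 was at 1.711, 1.579 and 2.154 RPKM against 0.662, 0.875 and 1.11 RPKM, 2.06-fold lower (adjusted p = 0.00408, limma). The groups of Hoxa7 stood apart, with a smaller gap than for Hoxa10.

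Hoxa3, needed for the thymus and parathyroids, was at 0.607, 0.555 and 0.756 RPKM against 0.133, 0.172 and 0.352 RPKM (2.92-fold, adjusted p = 0.00477, limma). Hoxa6 was at 0.724, 0.516 and 0.748 RPKM against 0.186, 0.369 and 0.202 RPKM (2.63-fold, adjusted p = 0.00597, limma). Neither pair of groups overlapped. Hoxa2, Hoxa4 and Hoxa13 were not called. Hoxa4 was at 0.418, 0.295 and 0.483 RPKM against 0.306, 0.152 and 0.221 RPKM, with overlap (log2 change -0.19, adjusted p = 0.0825, limma). Hoxa2, which sets the pattern of the second branchial arch, was at 0.24, 0.237 and 0.087 RPKM against 0.029, 0.029 and 0.063 RPKM (4.66-fold by group means, log2 change -0.19, adjusted p = 0.0571), and without the third control library its adjusted p was 0.013. The controls of Hoxa2 themselves spread more widely than the gap to the siTet1/Tet2 libraries. Hoxa13, which patterns the digits, was at 0.446, 0.091 and 0.633 RPKM against 0.079, 0.157 and 0.172 RPKM (log2 change -0.27, adjusted p = 0.136), and without the second control library its adjusted p was 0.00749. For Hoxa2 and Hoxa13 the side of the threshold thus turned on 1 library, whereas Hoxa4 stayed uncalled whichever library was left out. For Hoxa2 it also turned on the settings, since with all 6 libraries its adjusted p was 0.0311 with a pseudocount of 0.1 (limma).

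In the HoxC cluster all 9 genes were called lower on the deposited scale, beside 29.8% of all genes tested. No siTet1/Tet2 library reached a control library for any of them, which holds for 35.9% of all genes tested. Under stromal scaling 0 of the 9 were called, where 91.3% of all genes were called higher and 0.927% lower. Hoxc10, the member with the highest level and a gene of the hindlimb and lumbar region, was at 0.61, 0.822 and 1.487 RPKM after knockdown. Its group means differed 5.68-fold, the largest fold among the 24 genes (log2 change -1.74 ± 0.18 SE, adjusted p = 0.000129, limma). Hoxc9, which helps to set the thoracic region, was at 1.688, 1.712 and 1.898 RPKM against 0.121, 0.3 and 0.541 RPKM, 5.51-fold lower (log2 change -1.08 ± 0.12 SE, adjusted p = 0.000168).

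Hoxc6 was at 1.028, 0.901 and 1.676 RPKM against 0.095, 0.276 and 0.357 RPKM, 4.95-fold lower (adjusted p = 0.00187, limma). Hoxc11 was at 0.989, 1.346 and 1.144 RPKM against 0.17, 0.367 and 0.369 RPKM, 3.84-fold lower (adjusted p = 0.000439). For both, the 3 siTet1/Tet2 values lay well under the lowest control value, and the change on the log2(RPKM + 1) scale (-0.81 for Hoxc6 and -0.73 for Hoxc11) stayed under 2-fold.

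The other 5 HoxC genes averaged under 1 RPKM in the controls. Hoxc13, known for its part in hair and nails, was at 1.05, 0.802 and 0.734 RPKM against 0.171, 0.286 and 0.371 RPKM, the smallest fold of the cluster at 3.12 (adjusted p = 0.00176, limma). Hoxc8, of the thorax, was at 0.663, 0.596 and 0.805 RPKM against 0.088, 0.207 and 0.19 RPKM (4.26-fold, adjusted p = 0.00071). Hoxc5 was at 0.478, 0.473 and 0.586 RPKM against 0.076, 0.085 and 0.134 RPKM (5.21-fold, adjusted p = 0.000623, limma). These 3 genes show the same separation of groups at lower levels. Hoxc4 was at 0.48, 0.322 and 0.598 RPKM against 0.065, 0.121 and 0.107 RPKM (4.78-fold, adjusted p = 0.0037, limma). Hoxc12 was at 0.271, 0.333 and 0.203 RPKM against 0.016, 0.031 and 0.101 RPKM (5.45-fold, adjusted p = 0.0108, limma), values that stand for an estimated 7 to 11 reads per control library and 1 to 4 per siTet1/Tet2 library.

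The HoxB cluster held 1 well expressed gene, and that gene did not follow the HoxA and HoxC genes. Hoxb4, a regulator of hematopoietic stem cell self-renewal, was at 1.94, 2.224 and 1.895 RPKM in the controls and at 2.133, 1.84 and 2.009 RPKM after knockdown. The groups overlapped, and the log2 change was -0.01 with a 95% interval of -0.21 to 0.19 (adjusted p = 0.922, limma), an interval that holds none of the changes of the called HoxA and HoxC genes on that scale. Its sign was not stable: it was 0.05 under median ratio scaling and 0.21 under quantile normalization. The reads behind it were an estimated 158 to 210 per library.

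Hoxb2, a hindbrain gene, was at 0.294, 0.313 and 0.528 RPKM against 0.036, 0.144 and 0.039 RPKM, 5.18-fold lower, and it was the only HoxB gene called (adjusted p = 0.00896, limma). Hoxb3 was at 0.532, 0.473 and 0.687 RPKM against 0.17, 0.399 and 0.452 RPKM, without overlap, and was not called (log2 change -0.23, adjusted p = 0.094). Hoxb3 and Hoxb4 are neighbours on the chromosome, as are Hoxb2 and Hoxb3, so the values ran from a 5.18-fold to a 1.01-fold difference along 3 adjacent genes. The Hoxb2 end of this range rests on few reads, an estimated 4, 17 and 4 in the siTet1/Tet2 libraries. The remaining 7 HoxB genes, Hoxb1, Hoxb5, Hoxb6, Hoxb7, Hoxb8, Hoxb9 and Hoxb13, had means under 0.1 RPKM, with Hoxb5 and Hoxb8 at the lowest listed value in all 6 libraries.

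The HoxD cluster was nearly silent in both groups. Hoxd8 was its only tested gene, at 0.219, 0.337 and 0.62 RPKM in the controls and at 0.054, 0.135 and 0.26 RPKM after knockdown. The groups overlapped and it was not called (log2 change -0.27, adjusted p = 0.0874, limma). With the replicate number as a block its adjusted p was 0.0149, and this was the only call on a Hox gene that the block changed. Without the first control library it was also called (log2 change -0.36, adjusted p = 0.0372, limma). The other 8 HoxD genes stayed under a mean of 0.1 RPKM, the highest of them Hoxd9 at 0.0613 RPKM over the 6 libraries, just outside the filter, where Hoxa2 at 0.114 RPKM was just inside. Hoxd12 was at the lowest listed value in all 6 libraries. The digit and forearm genes Hoxd10, Hoxd11 and Hoxd13 were at 0.036 RPKM or less in every library.

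**Figure D3:**
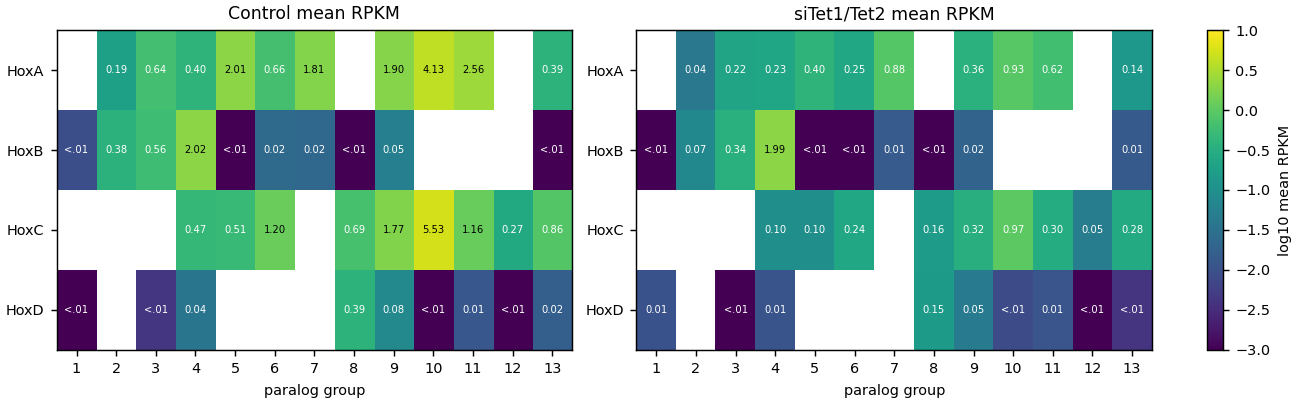
Mean RPKM of 38 Hox genes by cluster (rows) and paralog group (columns) in the Control (left) and siTet1/Tet2 (right) libraries, coloured by log10 mean RPKM. White fields are paralogs that mice lack or that are not reported here, the highest control fields are Hoxc10 (5.53) and Hoxa10 (4.13), and the Hoxb4 field is alike in both panels (2.02 and 1.99).

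Read by paralog group, each group from 5 to 13 had its highest control level in HoxA or HoxC, and group 4 in HoxB. In group 10 the control means were 4.13 RPKM for Hoxa10, 5.53 RPKM for Hoxc10 and 0.001 RPKM for Hoxd10. In group 9 they were 1.90 RPKM for Hoxa9 and 1.77 RPKM for Hoxc9, with Hoxb9 at 0.0527 RPKM and Hoxd9 at 0.077 RPKM. Paralogs of these groups were thus at very uneven levels. Group 4 has a gene in each of the 4 clusters, and its control means ran from Hoxb4 at 2.02 RPKM over Hoxc4 (0.467 RPKM) and Hoxa4 (0.399 RPKM) to Hoxd4 at 0.0363 RPKM.

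Whether HoxA and HoxC paralogs differed in how far they moved was tested on the log2 ratio of their RPKM in each library, over 7 pairs. Hoxa4 over Hoxc4 was the only pair whose groups did not overlap, at -0.20, -0.13 and -0.31 in the controls and 2.24, 0.33 and 1.05 after knockdown. The exact two-sided permutation test gave p = 0.1, the smallest that 3 against 3 libraries allow, and 0.70 after adjustment over the 7 pairs. For Hoxa10 over Hoxc10 the ratio was -0.40 ± 0.25 in the controls and -0.03 ± 0.32 after knockdown (SD, n = 3, exact permutation p = 0.2). For the other 5 pairs the groups overlapped as well, with differences of -0.09 to 1.01 on the log2 scale.

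The makeup of the Hox RNA differed accordingly. The RPKM of all 39 genes summed to 30.6, 29.7 and 35.8 in the controls and to 7.75, 9.82 and 12.6 after knockdown. The HoxC share of the sum was 39.0%, 37.4% and 40.1% in the controls and 18.2%, 25.4% and 29.0% after knockdown. The HoxA share stayed close, at 48.8% to 50.8% against 47.1% to 48.9%, with ranges that overlapped. Hoxb4 alone made up 5.3% to 7.5% of the sum in the controls and 15.9% to 27.5% after knockdown, and groups 9 to 13 made up 57.6% to 59.3% and 34.0% to 44.5%. These shares are tied to each other, since a share of 1 gene rises when the others are lower.

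**Figure D4:**
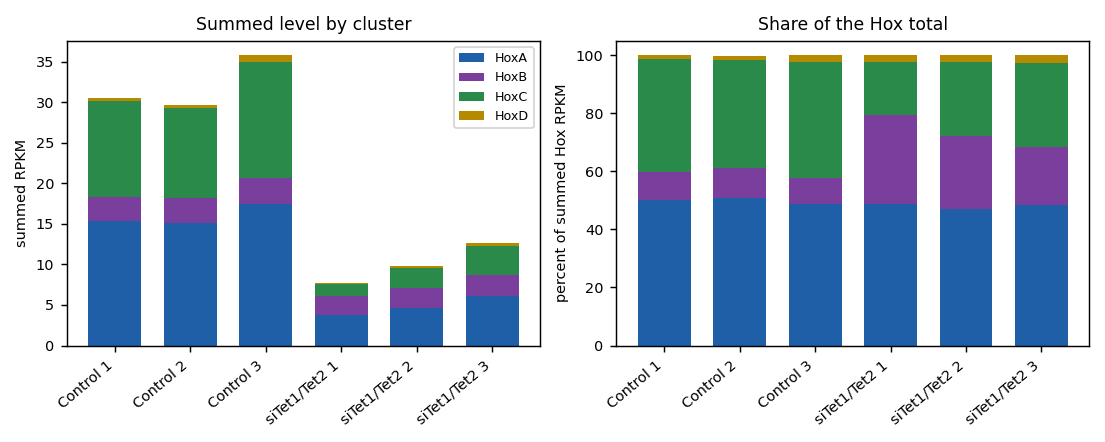
Summed RPKM of the Hox genes by cluster in each library (left) and the share of each cluster in the Hox sum (right), bars starting at 0. The sum is 29.7 to 35.8 RPKM in the Control and 7.75 to 12.6 RPKM in the siTet1/Tet2 libraries, and the HoxB share is 8.87% to 10.3% and 20.1% to 30.5%.

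Stromal markers were lower in the same libraries, with a median ratio next to that of the Hox genes. Of 27 stromal markers tested, 24 were lower and 0 higher, beside 29.8% and 14.7% of all genes. The median log2 ratio of group means of these markers was -2.09, where that of the 24 Hox genes was -2.06. Col3a1, a fibrillar collagen, had means of 125 and 14.1 RPKM, and Postn, a matrix protein of mesenchymal cells, had 36.5 and 3.60 RPKM. The decreases were uneven over the list, and Eng was only 1.52-fold lower. The 3 markers not called were Nt5e (1.43-fold lower by group means), Mcam (1.27-fold) and Fap (1.38-fold). The summed level of the stromal list was 3542 to 4214 RPKM in the controls and 611 to 1157 RPKM after knockdown, and none of its 30 genes was at the lowest listed value in all libraries. The macrophage list moved the other way in sum, from 11079 to 14191 RPKM in the controls and from 19626 to 22801 RPKM after knockdown. Of its 21 markers, 8 were higher and 4 lower, beside 14.7% and 29.8% of all genes, with a median log2 ratio of group means of 0.18. Without Lyz2, the most abundant of them, the sums were 7532 to 9178 RPKM and 9783 to 10299 RPKM. Among these, Lyz2 (2.55-fold) and Tyrobp (2.50-fold) were higher and Fcgr1 (3.92-fold) and Msr1 (1.69-fold) were lower. In such bulk samples fewer cells of a type and less RNA per cell cannot be told apart, and the part of cell makeup in the Hox values was not tested.

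The order of the siTet1/Tet2 libraries was alike in Hox and stromal genes. Of the 18 called Hox genes, 16 were lowest in siTet1/Tet2 replicate 1 and 14 were highest in replicate 3. The share of all genes with this order was not counted, so the order cannot be called particular to Hox or stromal genes. The stromal level of a library relative to the others was 0.313 in replicate 1, 0.445 in replicate 2 and 0.603 in replicate 3, and 1.98 to 2.78 in the controls. When each library was divided by this stromal level, the groups of 15 of the 24 Hox genes overlapped, 9 had every siTet1/Tet2 library above every control library and 0 had every one below, beside 92.7% and 1.42% of all genes tested. By limma on log2(scaled RPKM + 0.1), 15 of the 18 Hox genes called lower were no longer called, 3, Hoxa6 and Hoxa7 among them, were called higher and 0 lower, and 0 of all 24 were lower at an unadjusted p under 0.05. Of all 3952 genes called lower on the deposited scale, 21.0% were no longer called on this one, 75.5% were called higher and 3.47% lower, and of all genes tested 91.8% were higher and 1.04% lower. The fit on this scale takes the spread as known (its prior degrees of freedom were infinite, against 4.2 before scaling), although the scaling factors differ within a group and enter every gene, so its p-values are too small and its calls are given as a description.

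On the stromal scale Hoxc10 was at 2.44, 2.33 and 2.41 scaled RPKM in the controls and at 1.95, 1.85 and 2.46 after knockdown. Hoxa10 was at 1.93, 2.03 and 1.5 scaled RPKM against 1.86, 2.28 and 1.96. The groups of both genes overlapped. Hoxb4 was at 0.894, 1.13 and 0.681 scaled RPKM against 6.82, 4.14 and 3.33, with the groups far apart. Such a rise without overlap was held by 92.7% of all genes tested on this scale, so it is not particular to Hoxb4.

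Hox proteins bind DNA together with TALE homeodomain cofactors. Of 8 TALE genes tested, 4 were lower and 0 higher, beside 29.8% of all genes lower. Meis2 had means of 1.40 and 0.207 RPKM, 6.74-fold lower (log2 change -0.98, adjusted p = 0.000121, limma), and Meis1 had 1.81 and 1.24 RPKM, 1.46-fold lower (adjusted p = 0.0164). Pbx3 was 1.28-fold lower. Among these cofactors, Meis2 alone had a difference of the size seen in Hox genes.

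Genes of the machinery that keeps Hox states went both ways. Of 20 Polycomb genes tested, 7 were lower and 5 higher, beside 29.8% of all genes lower and 14.7% higher, and their median log2 change was -0.12. None changed by more than 2-fold on the log2(RPKM + 1) scale. The ring finger proteins Bmi1 (12.1 against 7.35 RPKM) and Pcgf2 (3.48 against 2.00 RPKM) were lower, and Cbx7, a chromodomain reader, was 2.71-fold higher by group means (0.924 against 2.50 RPKM, adjusted p = 0.000623, limma), as was Phc3 (1.38-fold). Of 15 Trithorax and H3K27 demethylase genes, 2 were lower, Psip1 (1.48-fold) and Ash2l (1.16-fold), and 0 higher, beside the same 29.8% and 14.7% of all genes.

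Retinoic acid induces Hox genes, most readily the 3′ ones. Of 12 genes of this axis tested, 7 were lower and 2 higher, beside 29.8% of all genes lower and 14.7% higher. By group means the receptor Rarb differed most, at 0.844 and 0.071 RPKM (11.9-fold, adjusted p = 0.00103, limma). Aldh1a2, an enzyme that makes retinoic acid, had means of 21.7 and 4.16 RPKM (log2 change -2.17, adjusted p = 8.74e-05, limma), and Crabp2, a carrier of retinoic acid into the nucleus, had 1.47 and 0.237 RPKM (6.23-fold). The receptors Rxra (32.9 against 58.5 RPKM) and Rxrb (14.6 against 19.6 RPKM) were higher. The Cdx and ParaHox genes, listed with Evx1 and Evx2 as relatives of the Hox genes, were silent or nearly so. Of these 8, 0 were tested and 5 were at the lowest listed value in all libraries.

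Other transcription factors of limb and skeleton were mostly lower. Of 16 tested, 14 were lower and 0 higher, beside 29.8% of all genes lower, with a median log2 ratio of group means of -2.09. Prrx2 (12.5 against 1.86 RPKM, 6.70-fold) and Tbx15 (8.10 against 1.25 RPKM, 6.47-fold) had the largest decreases. Pitx1, which marks the hindlimb, was at 1.892, 2.38 and 2.804 RPKM in the controls and at 0.456, 0.495 and 0.771 RPKM after knockdown. Tbx4, also a hindlimb gene, had means of only 0.102 and 0.047 RPKM and was not tested. Tbx5, which marks the forelimb, was at the lowest listed value of 0.001 RPKM in all 6 libraries. Genes that flank the clusters moved little. Of 11 tested, 2 were lower (Hnrnpa3, 1.43-fold, and Cbx5, 1.19-fold) and 1 higher (Calcoco1, 1.49-fold), beside 29.8% and 14.7% of all genes. The median log2 change of the 11 was -0.04, against -0.09 over all genes tested.

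**Figure D5:**
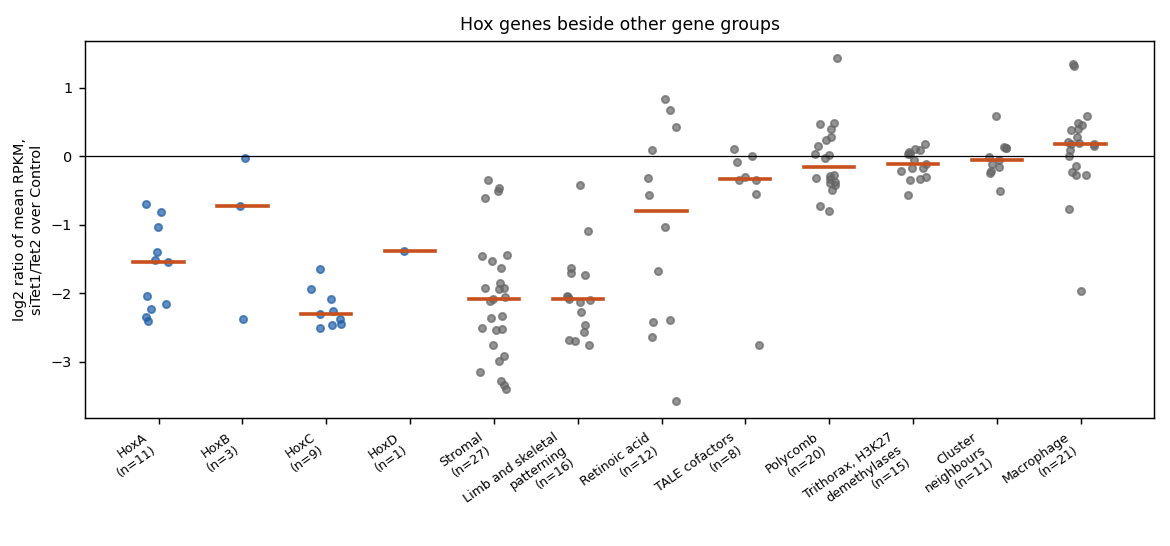
Log2 ratio of group mean RPKM, siTet1/Tet2 over Control, for each tested gene of the Hox clusters and of the other gene lists, with a bar at the median. HoxA, HoxC, limb and skeletal and stromal genes lie mostly below 0, while Polycomb, Trithorax and cluster neighbour genes lie on both sides of 0, on the deposited scale.

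Markers of further cell types were few. Of 6 endothelial markers tested, 3 were lower (Kdr, 2.62-fold, and Eng, 1.52-fold, among them) and 2 higher (Vwf, 3.16-fold, and Pecam1, 2.15-fold). Of all genes tested, 29.8% were lower and 14.7% higher. The neutrophil markers Camp (1.45 against 0.058 RPKM) and S100a8 (1.95 against 12.7 RPKM) went opposite ways, and of the lymphoid and erythroid list Cd4 (3.15-fold) and Cd79b (2.15-fold) were higher. Of 3 stem and progenitor markers tested, Gata2 was lower (2.48-fold). The non-coding genes of the clusters could not be read: all 14 rows, Hotair and Hottip among them, were at 0.001 RPKM in every library, and so were Malat1 and Neat1, which most cells express, and all 1178 miRNA rows.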

How the data were processed

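RNA sequencing of 6 libraries of mouse BMMSCs, 3 control and 3 siTet1/Tet2, was deposited as 1 table of RPKM per gene. Per the methods, the authors made libraries of total RNA with NEBNext Ultra kits and aligned paired reads to GRCm38 with DNASTAR Lasergene, and they call the unit FPKM where the file header says RPKM. The annotation release, strand setting and handling of multimapped reads are not given in the sources used here. A column with the p values of the authors' own comparison was not used. Columns of other samples numbered 0.

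The 39 members were found by symbol. A symbol on several rows was represented by its most abundant row. The 13266 genes averaging 0.1 RPKM or more across the libraries were fitted on log2(RPKM + 1) with limma 3.58.1 in R 4.3.3 (lmFit, eBayes with trend, two-sided), with Benjamini-Hochberg adjustment over all of them. A fold on this scale understates the change of low genes, so ratios of group mean RPKM are given as folds. A gene was called at an adjusted p under 0.05, and a second call asked for an unadjusted p under 0.05 and a change over 2-fold. Ratios of genes within a library were compared by exact permutation. Other scalings, pseudocounts, filters, a replicate block and the removal of each library were tried as alternatives. The stromal scale divides each library by its median stromal level, relative to the other libraries. That level is the median of log2(RPKM + 0.01) over the stromal list, centred on its mean over the 6 libraries. The gene at the median can differ between libraries, so the factors need not match the median ratio of the stromal list.

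The members, the gene lists and the tests were chosen with earlier results of these data known. A few genes count in the totals and are not reported here singly. For the others, values in every library are printed for each Hox gene with a group mean of at least 1 RPKM or a call, and for a few others that the text singles out. In the lists of TALE, Polycomb, Trithorax, retinoic acid, Cdx and ParaHox, cluster neighbour, limb, stromal, macrophage, endothelial, neutrophil, lymphoid and erythroid, and stem and progenitor genes, the called genes with the largest changes (up to 2 in each direction) are named, with defining markers. Pbx3, Pitx1, Tbx4, Rarb, Nt5e, Mcam and Fap were named after their values were seen.

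Replicate numbers come from the labels. Deviations from the group means of same-numbered libraries correlated at 0.149, 0.117 and 0.462 for replicates 1, 2 and 3, so a fit with the replicate number as a block was set beside the results it changes, although control 1 and siTet1/Tet2 2 correlated at 0.332. The main fit and the permutation tests were unpaired. Libraries correlated at 0.992 to 0.997 within and 0.949 to 0.969 between groups (log2 scale, across genes). Depth was estimated from the steps of low values and was used in no test.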

Additional observations from a re-analysis of the deposited data

How the results depend on the processing

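The count of Hox genes with an adjusted p under 0.05 was 18, all lower, beside 29.8% of all genes. It was 8 of 9 tested with a mean of at least 1 RPKM required, a setting whose share of all genes was not counted. Under stromal scaling it was 6, and 7 with a pseudocount of 0.1, all higher, beside 91.3% and 91.8% of all genes. The p-values are too small on that scale. Leaving out 1 library at a time gave 18 to 19. The count altered by more than 2-fold was 6, all lower, beside 5.63% of all genes. It was 16 with a pseudocount of 0.1 (10.8% of all genes) and 19 with the ratio of group means as the fold (11.8%). The count was 19 with a pseudocount of 0.01, 2 with quantile normalization and 1, higher, under stromal scaling. With 1 library left out it was 5 to 6. For these last settings the share of all genes was not counted. Without a filter on low values 19 of 36 Hox genes were called lower (20.2% of all genes). With the replicate block the counts were 19 and 6, and the block changed no call other than that of Hoxd8. Apart from the stromal scalings, 16 of 17 called genes followed singly stayed called in every alternative in which they were tested, and quantile normalization lost Hoxa6 (log2 change -0.24, adjusted p = 0.0515, limma).

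Hoxb4, near 0, changed sign to 0.05 with median ratio scaling, 0.21 with quantile normalization, 0.04 without control replicate 2 and 0.03 without siTet1/Tet2 replicate 2, and lay between -0.05 and 0.04 over the removals of 1 library. Under stromal scaling with a pseudocount of 1 the log2 changes that turned positive were Hoxa2 0.001, Hoxa3 0.20, Hoxa4 0.39, Hoxa5 0.0002, Hoxa6 0.29, Hoxa7 0.73, Hoxa10 0.11, Hoxa11 0.16, Hoxa13 0.16, Hoxb2 0.002, Hoxb3 0.47, Hoxb4 1.56, Hoxc4 0.02, Hoxc8 0.06, Hoxc11 0.13, Hoxc13 0.21 and Hoxd8 0.16. With a pseudocount of 0.1 they were Hoxa2 0.03, Hoxa3 0.57, Hoxa4 1.16, Hoxa6 0.76, Hoxa7 1.22, Hoxa10 0.16, Hoxa11 0.26, Hoxa13 0.69, Hoxb3 1.25, Hoxb4 2.24, Hoxc4 0.09, Hoxc8 0.17, Hoxc11 0.31, Hoxc13 0.56 and Hoxd8 0.58. These turns follow from the scale itself, on which the median log2 change of all genes was 1.92 with a pseudocount of 1. Limits are the 3 libraries per group, the low levels (an estimated 1 to 4 reads per siTet1/Tet2 library for Hoxc12), reads in overlapping spans, and stromal and macrophage markers that differ between the groups.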
